A study of Homo sapiens with 12 samples.

Results

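Cadherins and catenins form the adherens junction, and the expression of 10 listed genes of these families was examined in A375, an established human melanoma cell line. The genes were chosen by symbol, as the cadherins CDH1, CDH2, CDH3, CDH11, CDH13 and CDH19, the catenins CTNNA1, CTNNB1 and CTNND1, and the catenin inhibitor CTNNBIP1. Of these 10 genes, 9 had a row, 5 cadherins and 4 catenin genes, and CDH1 was not analysed here. The 4918 genes analysed had symbols from A1BG to FAM46B and are called all genes below. The lists of related genes and of cell type markers hold no later symbols. A mean of at least 1 FPKM (sequenced fragments divided by transcript length and by the sample's mapped fragments) over the 12 samples was reached by 7 of the 9, against 3177 of the 4918 genes.

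Classical cadherins are calcium-dependent adhesion proteins that bind their like on a neighbouring cell, and their cytoplasmic tails hold catenins. Beta-catenin, encoded by CTNNB1, binds the distal tail and recruits alpha-catenin, encoded by CTNNA1, which links the junction to actin, whereas p120-catenin, encoded by CTNND1, binds closer to the membrane and keeps the cadherin from being internalised. Beta-catenin also acts in the nucleus as a partner of TCF/LEF transcription factors in Wnt signalling, and the protein of CTNNBIP1 blocks that partnership. In melanoma, a loss of E-cadherin (CDH1) in favour of N-cadherin (CDH2) is a well known change.

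Cells labelled as control were compared with cells given SB-3CT, a small-molecule inhibitor of the gelatinases MMP2 and MMP9, with cells given interferon gamma (IFNγ, a cytokine), and with cells given both, and each group held 3 samples. The treatments lasted 24 h, doses were not given in the labels, and the protocol mentions a vehicle without saying which samples received it. All groups are the same cell line. The legend of the study's figure that holds the A375 RNA-seq says of all its experiments that they were repeated independently. The labels, however, do not tie the samples of a group to separate cultures. The p-values measure the spread between these samples, which may in part be technical. The number of reads per sample is unknown, but steps in the lowest FPKM values placed the depth of the samples between 87.2% and 150.1% of the control mean, and summed FPKM over the 4918 genes ran from 121928 to 129692. Of the lists of cell type markers, the 8 melanocyte lineage genes summed to between 688.8 and 820.9 FPKM over the samples, most of it from CD63 (mean of 661.9 FPKM), while the pigment gene DCT was at 0.154 FPKM on average. The 4 fibroblast markers with a row summed to at most 0.646 FPKM, the 7 epithelial ones to between 8.77 and 13.3 FPKM, mostly CLDN4 (8.69 FPKM), with EPCAM at 0.0583, the 5 endothelial ones to between 11.6 and 18.2, mostly EGFL7 (14.2 FPKM), with CDH5 at 0.0456, and the 6 leukocyte ones to between 20.0 and 31.7, mostly CD68 (26.0 FPKM). In the order control, SB-3CT, IFNγ and both agents, the sums were 730.9 to 817.7, 778.1 to 820.9, 688.8 to 729.5 and 712.6 to 761.9 FPKM for the melanocyte list and 20.0 to 23.4, 23.8 to 25.9, 26.5 to 31.7 and 27.9 to 29.8 for the leukocyte list. They were 12.6 to 14.0, 13.7 to 16.1, 11.6 to 15.8 and 15.8 to 18.2 for the endothelial list, 9.89 to 11.3, 10.5 to 13.3, 8.77 to 10.3 and 8.81 to 9.43 for the epithelial list and 0.390 to 0.625, 0.389 to 0.482, 0.577 to 0.646 and 0.231 to 0.502 for the fibroblast list. The leukocyte sum of every treated sample, mostly CD68, thus lay above that of every control, while CD3D, CD14, CD79A, CD8A and CD4 averaged 0.0878 FPKM or less. Other lists separated from the controls too. The melanocyte sums with IFNγ alone and the epithelial sums with both agents lay below all controls, and the endothelial sums with both agents above them. The part of these markers in the results below was not tested.

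Promoter sequence was found in the RefSeq promoter table for 5 of the 10 genes, CDH2, CDH19, CTNNA1, CTNNB1 and CTNNBIP1. The 250 bases before the RefSeq start, taken from the table and matched once each in GRCh37 (the same build as hg19), are shown for CDH2 (chr18:25757095-25757344, minus strand) and CTNNB1 (chr3:41240746-41240995, plus strand), which fell together when SB-3CT was added to IFNγ, and for CDH19 (chr18:64271328-64271577, minus strand), which fell with each agent alone. Capitals mark the CpG dinucleotides.
CDH2: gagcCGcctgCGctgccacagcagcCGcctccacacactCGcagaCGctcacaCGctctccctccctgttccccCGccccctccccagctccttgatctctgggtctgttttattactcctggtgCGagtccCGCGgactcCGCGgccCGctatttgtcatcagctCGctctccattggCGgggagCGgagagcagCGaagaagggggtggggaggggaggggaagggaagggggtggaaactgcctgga
CTNNB1: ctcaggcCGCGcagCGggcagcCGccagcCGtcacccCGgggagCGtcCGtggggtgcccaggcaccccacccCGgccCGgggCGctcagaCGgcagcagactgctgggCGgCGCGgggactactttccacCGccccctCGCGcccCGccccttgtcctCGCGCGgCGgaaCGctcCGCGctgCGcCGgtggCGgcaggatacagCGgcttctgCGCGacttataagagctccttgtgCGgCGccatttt
CDH19: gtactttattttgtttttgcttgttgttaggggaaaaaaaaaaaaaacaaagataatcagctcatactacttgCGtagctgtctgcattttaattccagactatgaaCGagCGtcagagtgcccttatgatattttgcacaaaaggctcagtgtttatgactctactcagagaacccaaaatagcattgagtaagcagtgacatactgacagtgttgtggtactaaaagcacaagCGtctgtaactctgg
The windows differ in composition. The CTNNB1 window held 34 CpG and 74.4% GC, that of CDH2 held 17 CpG and 66.0% GC, and that of CDH19 only 4 CpG and 38.0% GC, whereas the median over 27305 promoters of the same length was 11 CpG and 58.0% GC. The windows of CTNNA1 (33 CpG) and CTNNBIP1 (35 CpG) resembled that of CTNNB1. Both strands of the 5 windows were searched for 3 motifs, namely the IFNγ-activated GAS element TTCNNNGAA, held by 6.78% of all promoters, the E-box CAGGTG, held by 17.5%, and the TCF/LEF letters CTTTGA, held by 11.4%. None of the 5 windows held any of the 3, which says only that these letters are not in these 250 bases. The windows of CDH2, CTNNA1 and CTNNB1 lie inside the extent of the gene as GENCODE annotates it, so that other transcripts start further upstream.

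CTNNA1 and CTNNB1 were the most abundant of the 9 genes in every group. In the controls, CTNNA1 (chr5:137946656-138270723, GRCh37, plus strand) had 89.4, 90.1 and 90.3 FPKM, and CTNNB1 (chr3:41236232-41301587, plus strand) had 84.6, 82.5 and 88.3. Since FPKM is scaled to transcript length, these levels can be set against each other, and the control samples of the 2 genes did not overlap, although they did with IFNγ. CTNND1 (chr11:57520715-57587018, plus strand) followed with 23.4, 21.3 and 23.2 FPKM in the controls, overlapping with CDH13 (chr16:82660570-83834245, plus strand), the most abundant of the 5 cadherins examined, at 19.8, 20.9 and 22.4. With both agents the order of these last genes turned, CDH13 having 14.7 to 15.4 FPKM and CTNND1 13.8 to 14.8, again with overlap. T-cadherin, the product of CDH13, is held in the membrane by a lipid anchor and has no tail for catenins. CDH2 (chr18:25512843-25757910, minus strand) and CTNNBIP1 (chr1:9908334-9970394, minus strand) overlapped in the controls, at 14.0 to 14.9 and 13.6 to 14.3 FPKM, and CDH19 (chr18:64168320-64271375, minus strand), a cadherin known from Schwann cell precursors, stood below both at 4.30 to 5.11 FPKM.

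CDH3 (P-cadherin, chr16:68670092-68761371, plus strand) and CDH11 (a mesenchymal cadherin, chr16:64977656-65160015, minus strand) were close to 0 throughout. CDH3 reached at most 0.0862 FPKM and was listed at 0 in 3 of 12 samples, and CDH11 reached at most 0.0611 FPKM and was listed at 0 in 7 of 12. At such levels a change could not be detected, and neither gene passed the test in any comparison.

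**Figure D1:**
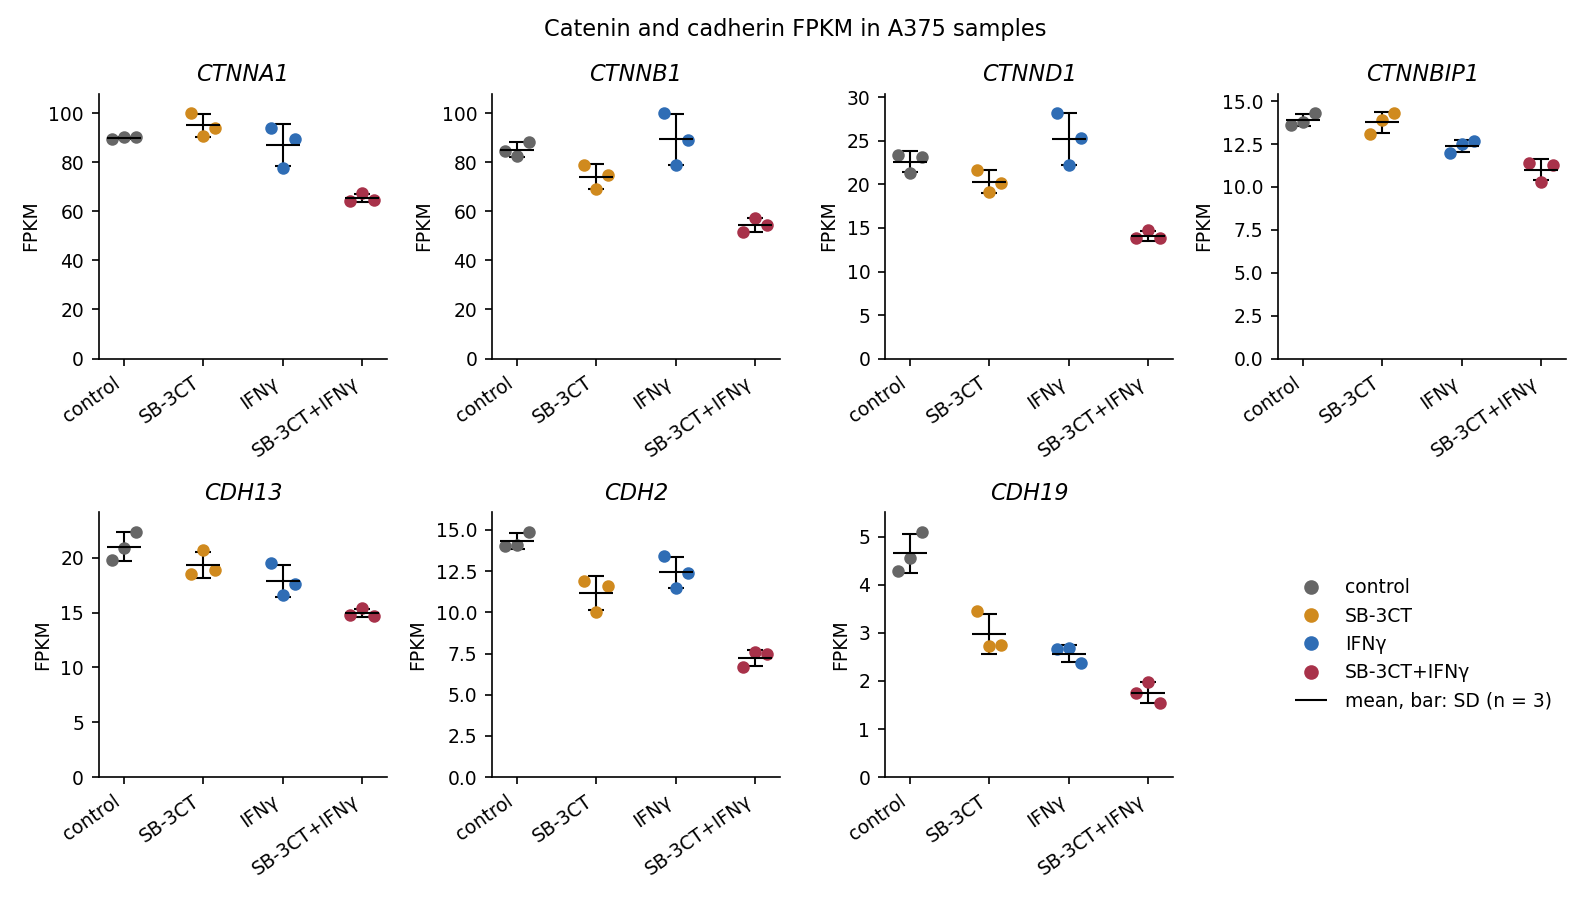
FPKM (linear axis from 0) of the 7 cadherin and catenin genes above 1 FPKM in each of the 12 A375 samples, with the mean and SD of the 3 samples of each group. The SB-3CT+IFNγ samples were the lowest for all 7 genes on the deposited scale, for example at 6.67 to 7.59 FPKM for CDH2 against 10 or more in every other group. How many of all genes had this order was not counted, and the median gene above 1 FPKM also changed by -0.20 against IFNγ. CDH13 and CTNNBIP1 were not lower than with IFNγ under every other scaling.

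SB-3CT with IFNγ was first compared with IFNγ alone, which asks how the inhibitor changes cells under the cytokine. CDH2, CTNNB1 and CTNND1 fell to between 56.0% and 60.9% of their FPKM with IFNγ alone, CTNNA1, CDH19 and CDH13 fell by less, and no member rose. CTNND1 had 28.2, 22.2 and 25.3 FPKM with IFNγ and 13.8, 14.8 and 13.8 with both agents. CTNNB1 went from 100, 79.0 and 88.9 FPKM to 51.4, 57.3 and 54.4. CDH2 went from 13.4, 11.5 and 12.4 FPKM to 6.67, 7.59 and 7.44. In all 3 genes every sample with both agents lay below every IFNγ sample, and in bulk RNA fewer cells of a type and less RNA per cell cannot be told apart. On the log2(FPKM + 1) scale of the table, which understates the change of low genes, the change was -0.79 for CTNND1 (SE 0.09, limma adjusted p = 0.00207), -0.70 for CTNNB1 (SE 0.09, limma adjusted p = 0.00236) and -0.70 for CDH2 (SE 0.08, limma adjusted p = 0.00209).

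The other members moved less. CTNNA1 had 94.1, 77.6 and 89.4 FPKM with IFNγ and 64.3, 67.4 and 64.6 with both agents, a change of -0.40 (SE 0.08, limma adjusted p = 0.00593). CDH19 had 2.66, 2.68 and 2.37 FPKM and then 1.75, 1.98 and 1.55, a change of -0.37 (SE 0.09, limma adjusted p = 0.0162). CDH13 had 19.5, 16.6 and 17.6 FPKM and then 14.8, 15.4 and 14.7, a change of -0.24 (SE 0.07, limma adjusted p = 0.0308). The groups did not overlap in any of these genes, nor in CTNNBIP1, whose 12, 12.5 and 12.7 FPKM with IFNγ stood against 11.4, 10.3 and 11.3 (log2 change of -0.16, SE 0.06, limma adjusted p = 0.0907). How many of all genes had groups without overlap was not counted, here or in the comparisons below.

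Thus 6 of 9 members were lower at an adjusted p under 0.05 and 0 were higher, where 31.5% of all 4918 genes were lower and 6.41% higher. By the second rule, a fold change over 1.5 in FPKM + 1 with an unadjusted p under 0.05, 3 members were lower (CDH2, CTNNB1 and CTNND1) against 6.51% of all genes. The median change was -0.40 over the 7 members above 1 FPKM and -0.20 over the 3177 genes above it, and other scalings between samples removed that shift of all genes (0.02 after median ratio scaling, -0.01 after quantile normalization and -0.03 once the trend with transcript length was removed). CTNND1, CTNNB1 and CDH2 passed under each of these scalings, with changes of -0.55, -0.45 and -0.47 after median ratio scaling, -0.60, -0.71 and -0.46 after quantile normalization and -0.40, -0.41 and -0.42 without the length trend. CTNNA1 passed after quantile normalization (-0.45, limma adjusted p = 0.0106) but not after median ratio scaling (-0.15, limma adjusted p = 0.0651) or without the length trend (-0.11, limma adjusted p = 0.153). The calls of CDH19 and CDH13 rested on the deposited scale and on single samples. CDH19 lost its call without IFNγ replicate 1 (adjusted p = 0.0556) or SB-3CT+IFNγ replicate 1 (0.0523) or 3 (0.0609). CDH13 lost its own without any sample but IFNγ replicate 2, with adjusted p from 0.0548 to 0.1. CDH19 changed by -0.20 to -0.10 under the other 3 scalings with no call, and CDH13 by 0.00 and -0.04 with no call and by 0.16 with the length trend removed (limma adjusted p = 0.0485), which is a turn in direction. CTNNBIP1 took the opposite sign under all 3 (0.05 to 0.08), again with no call.

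**Figure D2:**
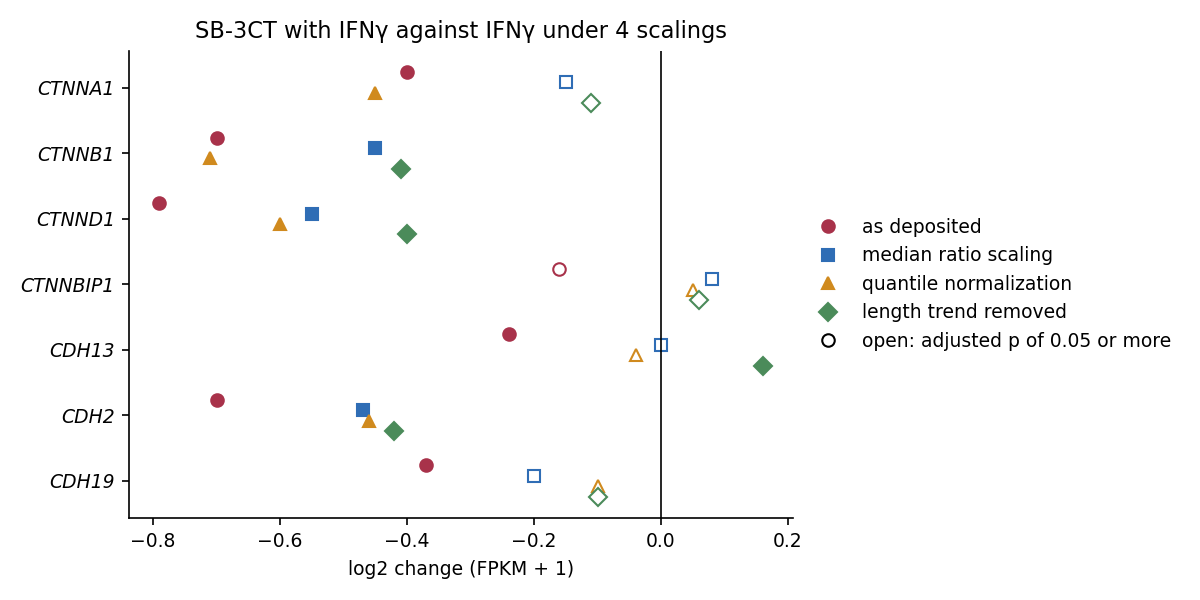
Log2 change of FPKM + 1 (horizontal axis) in SB-3CT with IFNγ against IFNγ alone for 7 cadherin and catenin genes, as deposited and under 3 other scalings between samples (marker shape); filled markers passed an adjusted p of 0.05 in limma. CTNNB1, CTNND1 and CDH2 lay between -0.79 and -0.40 under all 4 scalings, while CDH13 ran from -0.24 to 0.16.

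SB-3CT was next compared with control, in the absence of IFNγ. In the fit over all genes only cadherins passed, CDH2 and CDH19, and both were lower. CDH2 had 14.0, 14.1 and 14.9 FPKM in the controls and 11.9, 10 and 11.6 with SB-3CT, a change of -0.33 (SE 0.07, limma adjusted p = 0.0314). CDH19 had 4.30, 4.56 and 5.11 FPKM and then 3.46, 2.72 and 2.75, a change of -0.51 (SE 0.10, limma adjusted p = 0.0263). Neither gene's groups overlapped, and both passed under all 3 other scalings, at -0.30 to -0.28 and -0.47 to -0.42. Both calls were however lost in 5 of 6 fits that left out 1 sample (all but the one without SB-3CT replicate 1), with adjusted p up to 0.115 for CDH2 and 0.107 for CDH19, and with a replicate block (adjusted p = 0.0554 and 0.0624).

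Among the catenins, CTNNB1 had 79.0, 68.9 and 74.6 FPKM with SB-3CT, each below the lowest control of 82.5 (log2 change of -0.20, SE 0.06, limma adjusted p = 0.0654, and 0.0358 without SB-3CT replicate 1). CTNNA1 had 100, 90.8 and 94.1 FPKM, each above the highest control of 90.3 (log2 change of 0.08, SE 0.04, limma adjusted p = 0.301). Without the length trend CTNNA1 was called higher (0.13, limma adjusted p = 0.0407) and CTNNB1 lower (-0.15, limma adjusted p = 0.043). CTNNB1 and CTNNA1 thus stood on opposite sides of their controls, and neither passed the test on the deposited scale with all genes and samples. CTNNB1 did pass once genes under a mean of 1 FPKM were left out (-0.20, limma adjusted p = 0.0308). CTNND1 (21.7, 19.1 and 20.2 FPKM), CDH13 (18.5, 20.7 and 18.9) and CTNNBIP1 (13.1, 13.9 and 14.3) overlapped with their controls, with log2 changes of -0.15, -0.11 and -0.01. In sum 2 of 9 members were lower and 0 higher, against 6.87% and 5.37% of all genes, and 0 members passed the fold rule, against 0.569% of all genes lower. That 0 depends on the added 1, since CDH19 was at 63.9% of its control FPKM and changed by -0.63 with a pseudocount of 0.1, past a 1.5-fold change. How many of all genes were past it with that pseudocount was not counted.

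IFNγ alone was compared with control. CDH19 fell to 2.66, 2.68 and 2.37 FPKM from 4.30, 4.56 and 5.11, which is 55.2% of its control mean, and the log2 change of -0.66 (SE 0.08, limma adjusted p = 0.00329) kept its call in every alternative fit run, with -0.68 to -0.62 under the other scalings. It was the only member called, so that 1 of 9 was lower and 0 were higher, where 11.0% of all genes were lower and 8.46% higher. The same gene was the 1 member past the fold rule, against 1.55% of all genes lower. CDH2 (13.4, 11.5 and 12.4 FPKM) and CDH13 (19.5, 16.6 and 17.6) lay below all their controls, with log2 changes of -0.19 (limma adjusted p = 0.0925) and -0.22 (limma adjusted p = 0.0876). CDH2 passed under all 3 other scalings, at -0.22 to -0.15, and CDH13 after quantile normalization and without the length trend. Both also passed without IFNγ replicate 1 (limma adjusted p = 0.0442 and 0.0452). CTNNBIP1 also lay below its controls (-0.15, limma adjusted p = 0.0671), whereas CTNNA1, CTNNB1 and CTNND1 overlapped with them, at log2 changes of -0.05, 0.06 and 0.14.

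Against SB-3CT alone, the addition of IFNγ lowered all 7 members above 1 FPKM, with limma adjusted p from 0.000643 for CTNNA1 (log2 change of -0.53, SE 0.05) to 0.0102 for CDH19 (-0.52, SE 0.10). CTNNA1 went from 100, 90.8 and 94.1 FPKM to 64.3, 67.4 and 64.6, or 68.9% of its mean with SB-3CT alone. The changes of the others were -0.56 for CDH2, -0.50 for CTNND1, -0.44 for CTNNB1, -0.35 for CDH13 and -0.30 for CTNNBIP1. The groups did not overlap in any of the 7, but the share of all genes without overlap was not counted. These 7 of 9 members, with 0 higher, stand against 32.7% of all genes lower and 7.85% higher, and 0 members passed the fold rule in FPKM + 1 against 3.40% of all genes. With a pseudocount of 0.1, CDH2 (-0.62, at 64.7% of its FPKM with SB-3CT alone) and CDH19 (-0.72, at 59.2%) were past 1.5-fold, but the share of all genes past it with that pseudocount was not counted. The median of the 3177 genes moved by -0.21 in the same comparison and by 0.01 after median ratio scaling, where CDH2 (-0.33), CDH19 (-0.35), CTNNA1 (-0.27) and CTNND1 (-0.25) were still called and CTNNB1 (-0.18, limma adjusted p = 0.0594), CDH13 and CTNNBIP1 were not. The 4 comparisons share groups of samples, so their counts are not independent.

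**Figure D3:**
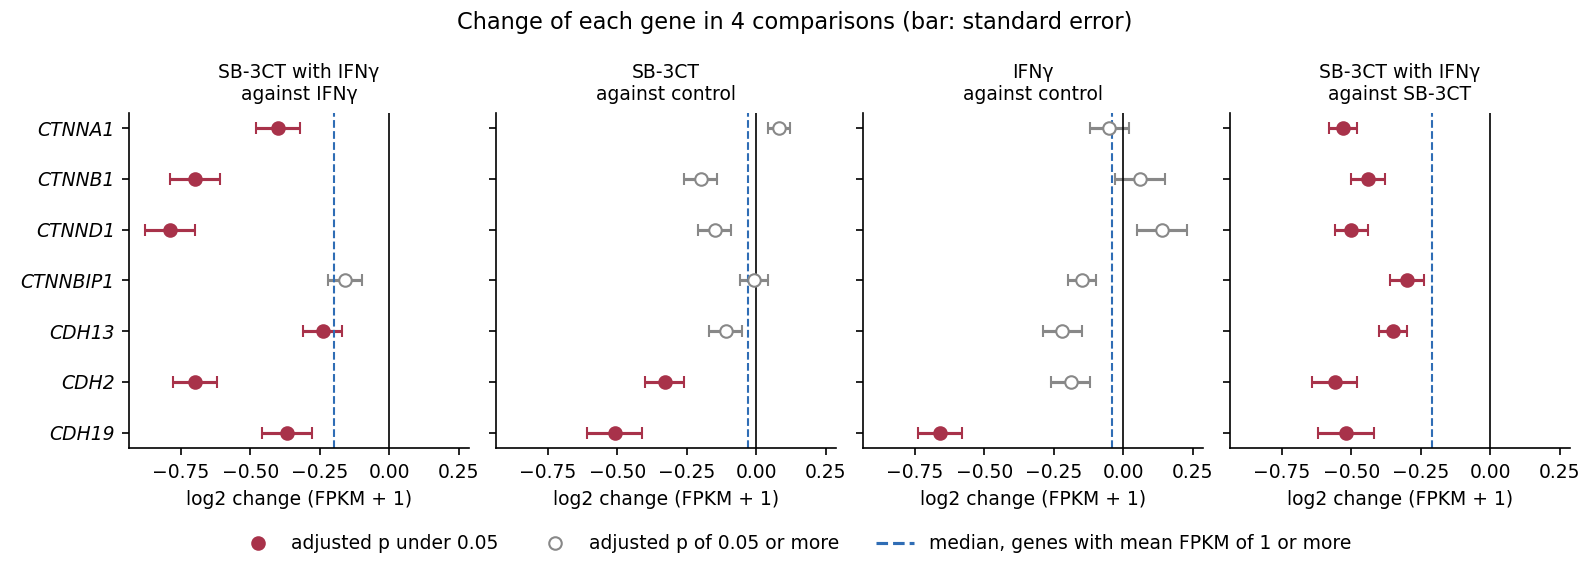
Log2 change of FPKM + 1 with its standard error (horizontal axis) for 7 cadherin and catenin genes in the 4 comparisons of 2 groups, with filled points for an adjusted p under 0.05 in limma and a dashed line at the median of the 3177 genes with a mean of at least 1 FPKM. CTNND1 at -0.79 was the lowest point, and the median itself stood at -0.20 and -0.21 in the comparisons with both agents.

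Whether SB-3CT changed a gene differently with and without IFNγ was tested over all 12 samples as the change with SB-3CT under IFNγ minus the change without it. The difference was -0.64 for CTNND1 (SE 0.11, limma adjusted p = 0.00559), -0.50 for CTNNB1 (SE 0.11, limma adjusted p = 0.0118), -0.48 for CTNNA1 (SE 0.09, limma adjusted p = 0.00653) and -0.37 for CDH2 (SE 0.11, limma adjusted p = 0.0318). The SB-3CT change of the 3 catenins was thus lower in the presence of IFNγ than in its absence. The difference did not pass for CDH13 (-0.13), CDH19 (0.14) or CTNNBIP1 (-0.15). In all, 4 of 9 members were lower and 0 higher, against 17.6% and 4.74% of all genes, and the median of the 3177 genes was -0.19. After median ratio scaling, which took that median to -0.02, CTNND1 (-0.44), CTNNB1 (-0.29) and CTNNA1 (-0.27) still passed and CDH2 (-0.18, limma adjusted p = 0.202) did not, nor did CDH2 after quantile normalization (0.236) or without the length trend (0.328). At an unadjusted p under 0.05 in limma, too, 0 members were higher in this test or in the 4 comparisons above, but the share of all genes higher by that rule was not counted. CDH2 also lost its call in 8 of 12 fits without 1 sample, and CTNNB1 its own without the length trend (-0.26, limma adjusted p = 0.0509).

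The proportions of the catenins to each other do not depend on how samples are scaled by a constant, and were taken as the log2 ratio of FPKM within each sample. CTNNB1 to CTNNA1 was -0.08, -0.13 and -0.03 in the controls and -0.34, -0.40 and -0.33 with SB-3CT. Under IFNγ it was 0.09, 0.03 and -0.01, and with both agents -0.32, -0.23 and -0.25. SB-3CT samples were thus lower in beta-catenin relative to alpha-catenin mRNA whether or not IFNγ was present, with differences of -0.28 without it and -0.30 with it and no overlap (exact two-sided permutation p = 0.1 in each, the smallest that 3 against 3 samples can give, so that no such comparison can pass 0.05). With IFNγ the same ratio differed by 0.11 without SB-3CT and by 0.09 with it, also without overlap. For CTNND1 to CTNNA1 the 3 control samples gave -1.93, -2.08 and -1.96 and those of SB-3CT alone -2.20, -2.25 and -2.22. It was -1.74, -1.80 and -1.82 under IFNγ and -2.22, -2.19 and -2.23 under the combination. It differed with SB-3CT by -0.23 without IFNγ and by -0.42 with it, without overlap, with IFNγ against control by 0.20, also without overlap (exact two-sided permutation p = 0.1 in each). In the presence of SB-3CT the ratio with and without IFNγ overlapped (difference of 0.01, exact two-sided permutation p = 0.5). The difference under IFNγ was smaller for CTNND1 to CTNNA1 after quantile normalization (-0.17) and without the length trend (-0.31), with annotated transcripts of 6670 bases for CTNND1 and 3754 for CTNNA1. For CTNNB1 (3661 bases) to CTNNA1 it was -0.26 and -0.31 in the same settings.

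**Figure D4:**
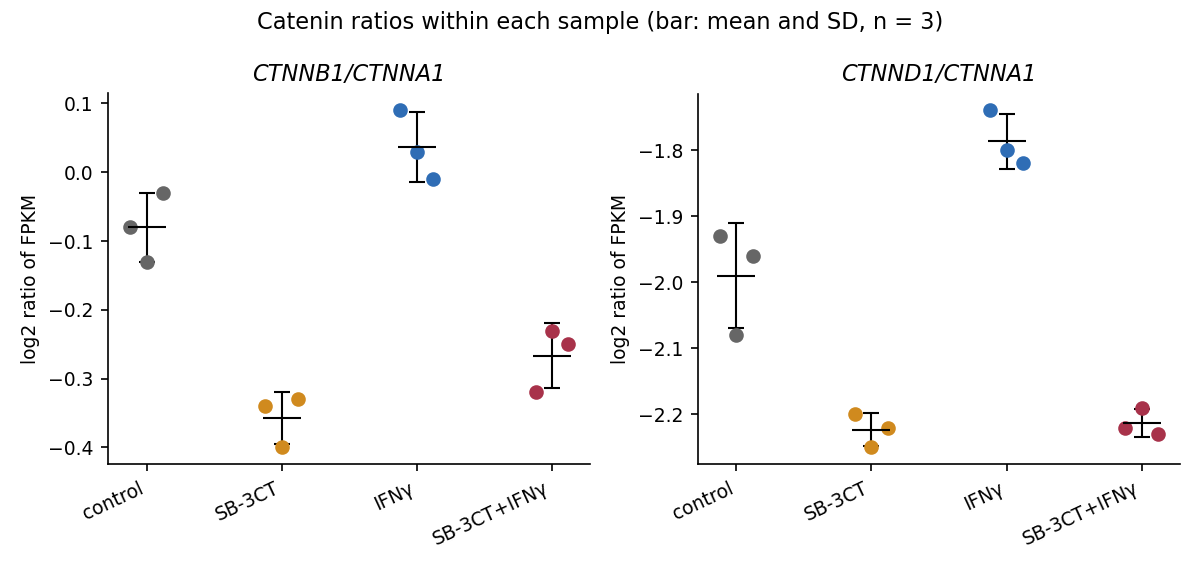
Log2 ratio of FPKM of CTNNB1 and of CTNND1 to CTNNA1 within each of the 12 samples (vertical axes, not starting at 0), with the mean and SD of each group of 3. The 6 samples with SB-3CT lay at -0.23 or lower for CTNNB1 to CTNNA1, and the 6 without it at -0.13 or higher.

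The make-up of the mRNA of the 5 cadherins examined was taken as the share of each gene in their summed level. CDH1 and the other cadherins described below are not in this sum. The 5 cadherins summed to 40.1 ± 2.23 FPKM in control samples, 33.5 ± 0.362 under SB-3CT, 32.9 ± 2.49 under IFNγ and 24.0 ± 0.988 under the combination (mean ± SD, n = 3). CDH13 made up 52.5% ± 0.447 of this sum in the controls and 62.4% ± 1.17 with both agents, while CDH2 went from 35.7% ± 0.82 to 30.1% ± 1.28 and CDH19 from 11.6% ± 0.379 to 7.32% ± 0.698 (SD, n = 3). The share of CDH2 with both agents, 28.8 to 31.3%, lay below that with IFNγ alone, 37.3 to 38.2%, and overlapped with that under SB-3CT alone, 29.9 to 35.1%. The sum of the 3 catenins CTNNA1, CTNNB1 and CTNND1 was 197.7 ± 3.92, 189.5 ± 11.0, 201.6 ± 21.8 and 133.9 ± 5.08 FPKM in the same order, so that it overlapped among the first 3 groups and lay below them with both agents.

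**Figure D5:**
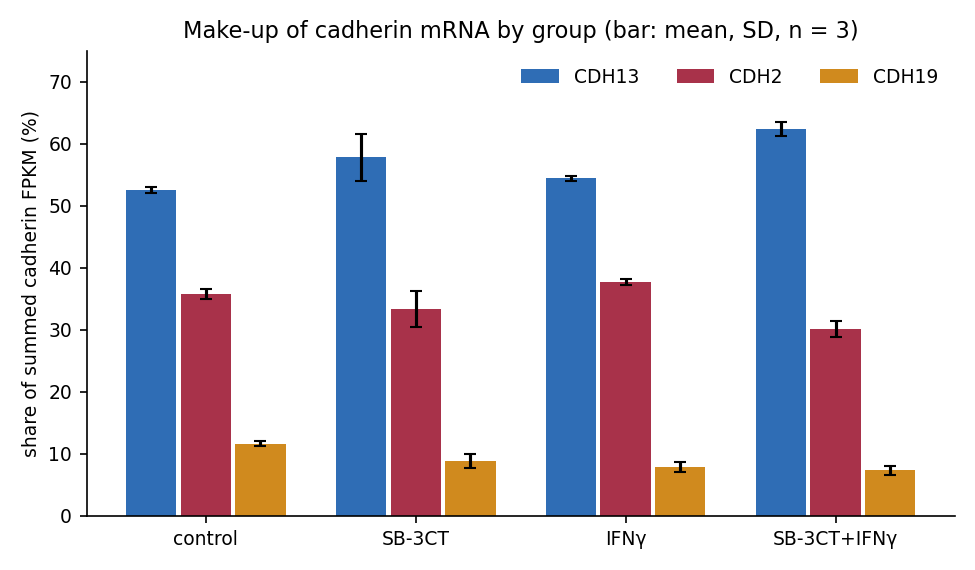
Share of each of CDH13, CDH2 and CDH19 in the summed FPKM of the 5 cadherins (percent, axis from 0), as the mean and SD of 3 samples per group. CDH13 held the largest share in every group, 52.5% in the controls and 62.4% with SB-3CT+IFNγ, and CDH19 the smallest of the 3.

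Across the 12 samples, which share the group differences above, CTNNB1 and CTNND1 had the most similar profiles of the 7 members (Pearson r = 0.99 on the log2 scale), followed by CDH2 and CTNNB1 (0.95), and CTNND1 and CTNNBIP1 the least (0.58). The 3 genes of the table most like CDH13 were APEH (0.966), CPE (0.960) and CTSZ (0.957), and those most like CTNNA1 were BAG3 (0.986), ABR (0.986) and CS (0.984).

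Related genes were read from lists set out in the same way for all comparisons. Of 37 other cadherins 28 had a row and 8 were above 1 FPKM, the most abundant being the calsyntenin gene CLSTN1 (25.1 FPKM on average) and the desmosomal cadherin gene DSG2 (5.52 FPKM). Between SB-3CT with IFNγ and IFNγ, 8 of the 28 were lower and 0 higher, where 31.5% and 6.41% of all genes were. CDH12 was among the lower ones (1.09 against 2.31 FPKM, log2 change of -0.66, SE 0.10, limma adjusted p = 0.00303). These shares are not like for like, since 3177 of all 4918 genes but only 8 of the 28 reached 1 FPKM. Over genes above 1 FPKM the median change was -0.33 in this list and -0.20 in all genes. With IFNγ against control 4 were lower and 1 higher (11.0% and 8.46% of all genes), the latter CLSTN3, at 1.83 against 0.752 FPKM (0.69, SE 0.10, limma adjusted p = 0.00595), which was also the 1 higher gene when IFNγ was added to SB-3CT (0.39). With SB-3CT alone 3 of the 28 were lower and 0 higher, against 6.87% and 5.37% of all genes. In the alpha-catenin family, CTNNAL1 (alpha-catulin) went from 12.8 FPKM with IFNγ to 7.89 with both agents (-0.64, SE 0.10, limma adjusted p = 0.00329), and CTNND2 and ARVCF, relatives of CTNND1, averaged 0.1 and 0.443 FPKM.

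The genes of a list on actin and junction linkage, which also holds general actin genes and DSP, did not all go the way of the catenins. Of 18 such genes 12 were lower and 1 higher in SB-3CT with IFNγ against IFNγ, where 31.5% and 6.41% of all genes were. The list had 17 of 18 genes at a mean of at least 1 FPKM, against 3177 of all 4918, so these shares are not like for like. Over the genes above 1 FPKM the median change was -0.27 in the list and -0.20 in all genes. ACTR2, a subunit of the actin-branching Arp2/3 complex, was lower (44.2 against 81.0 FPKM, log2 change of -0.89, SE 0.20, limma adjusted p = 0.0125; -0.64 with adjusted p = 0.0511 after median ratio scaling), and ARPC3, another subunit of that complex, was the higher gene (353.1 against 272.8 FPKM, 0.37, SE 0.06, limma adjusted p = 0.00412). ACTN1, an actinin that binds alpha-catenin, rose with SB-3CT alone from 68.6 to 85.4 FPKM (0.31, SE 0.05, limma adjusted p = 0.0128). In that comparison 1 gene of the list was higher and 2 were lower, against 5.37% and 6.87% of all genes, and with IFNγ against control 0 were higher and 1 lower, against 8.46% and 11.0%.

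Of 12 genes of beta-catenin turnover, 6 were lower and 0 higher in SB-3CT with IFNγ against IFNγ. APC, the scaffold of the beta-catenin destruction complex, was at 1.26 against 2.50 FPKM (-0.63, SE 0.09, limma adjusted p = 0.0027), and with SB-3CT alone CSNK1D, a casein kinase, rose from 33.7 to 41.2 FPKM (0.28, SE 0.05, limma adjusted p = 0.0183). Of 10 transcription partners of beta-catenin 7 were lower and 0 higher under the combination, led by CDC73 (5.70 against 9.73 FPKM, -0.67, SE 0.10, limma adjusted p = 0.00284). With IFNγ alone 2 of them were higher and 0 lower, against 8.46% and 11.0% of all genes, among them CHD8, a chromatin remodeller that binds beta-catenin (8.19 against 6.18 FPKM, 0.35, SE 0.09, limma adjusted p = 0.0461).

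Of 6 ADAM genes, some of whose proteases cut cadherins off the cell surface, 3 were lower and 0 higher in SB-3CT with IFNγ against IFNγ. ADAM9 was at 12.7 against 22.7 FPKM (-0.78, SE 0.09, limma adjusted p = 0.00207) and had already been lower with SB-3CT alone (17.2 against 24.8 FPKM, -0.51, SE 0.09, limma adjusted p = 0.0169). ADAM15 was higher with SB-3CT alone (125.6 against 105.2 FPKM, 0.25, SE 0.05, limma adjusted p = 0.0263) and with IFNγ alone (135.9 against 105.2 FPKM, 0.37, SE 0.04, limma adjusted p = 0.00183). The counts of these last 3 lists under the combination stand beside 31.5% of all genes lower and 6.41% higher. A mean of at least 1 FPKM was reached by 9 of 12, 10 of 10 and 4 of 6 of their genes, against 3177 of all 4918. Over genes above 1 FPKM the median changes were -0.31, -0.40 and -0.63 in the 3 lists, against -0.20 in all genes.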

How the data were processed

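Total RNA of A375 cells was sequenced by the authors, and per the submitters' processing notes reads were aligned to hg19 with HISAT2 2.0.5 and quantified with StringTie 1.3.3 as FPKM. The deposited values are log2(FPKM + 1), so no further logarithm was taken, and FPKM was recovered as 2 to the power of the value minus 1. Columns were matched to samples by name. Genes with symbols from A1BG to FAM46B were analysed. Read depth was not given in the sources used here.

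Fits of 2 groups used 3 + 3 samples in R 4.3.3 with the package limma 3.58.1 (lmFit, eBayes with trend, unpaired), and the difference between the SB-3CT changes was an interaction term over 12 samples. P-values were adjusted over 4918 genes (Benjamini-Hochberg) and called under 0.05. Ratios were compared by exact permutation. The functions were tested on simulated data. Alternatives were a filter on a mean of 1 FPKM, a pseudocount of 0.1, median ratio scaling, quantile normalization, removal of the transcript length trend (loess), all groups in one fit, a replicate block, eBayes without trend, an equal-variance test per gene and each sample left out.

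All listed genes are named, and from each related list the largest rise and fall among genes called with a mean FPKM of at least 1 were eligible. The 3 genes most correlated with the most abundant cadherin and catenin among the members were named as well. CLSTN1, DSG2, CTNND2 and ARVCF were named for their level after it was seen. The genes and lists were chosen with earlier results of these data known. Positions are from GENCODE 44 on GRCh37, and promoters from the RefSeq table.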

Additional observations from a re-analysis of the deposited data

Results flagged for a closer look

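The 4 genes CTNND1, CTNNB1, CTNNA1 and CDH2 drew attention because the response to SB-3CT was not the same in the absence and presence of IFNγ by the test of that difference itself (limma interaction over 12 samples). The difference was -0.64 for CTNND1, -0.50 for CTNNB1, -0.48 for CTNNA1 and -0.37 for CDH2 on the log2 scale. In CTNNA1 the change was 0.08 without IFNγ and -0.40 with it. In CTNNB1 it was -0.20 and -0.70, in CTNND1 -0.15 and -0.79, and in CDH2 -0.33 and -0.70. The difference of CDH2 did not pass under the 3 other scalings (adjusted p = 0.202, 0.236 and 0.328) or with the equal-variance test per gene (0.0518). The median of all genes above 1 FPKM was -0.19 in the same test, and its part in these values was not tested beyond the scalings described.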

How the results depend on the processing

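Over 45 results for single genes, 710 alternative values were computed. Of these, 626 kept their direction and their side of the threshold, 51 lost a call, 15 gained one and 18 changed sign, where a sign was read after rounding to 2 decimals and a change of 0.00, as for CDH11 in SB-3CT with IFNγ against IFNγ, was counted as keeping its direction. The cause of these changes was not tested. The share of all genes called was taken in the main fit only. The counts of members called in other settings, given next, thus have no such share to be read against. For the members called, median ratio scaling gave 3 in SB-3CT with IFNγ against IFNγ, 4 against SB-3CT and 2 in IFNγ against control. Without the length trend 4 were called with SB-3CT against control, 3 with IFNγ against control and 2 in the interaction, and quantile normalization gave 3 with IFNγ against control. That comparison gave 2 with a mean FPKM of at least 1, with all 4 groups in one fit and with eBayes without trend. SB-3CT against control gave 3 with a mean FPKM of at least 1, 0 with the equal-variance test per gene and 0 with the replicate block. Samples of the same number correlated between -0.395 and 0.172 in their deviations from the group means, which cannot show whether they share a culture or batch. The replicate block gave 5 calls in SB-3CT with IFNγ against IFNγ, 7 against SB-3CT, 1 for IFNγ against control and 4 in the interaction. Leaving out each sample in turn gave 4 to 6 calls in SB-3CT with IFNγ against IFNγ, 0 to 3 in SB-3CT against control, 1 to 3 in IFNγ against control, 7 in SB-3CT with IFNγ against SB-3CT and 3 to 4 in the interaction.

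The CTNND1 to CTNNA1 ratio in SB-3CT with IFNγ against IFNγ was -0.39 with a pseudocount of 1, -0.17 after quantile normalization and -0.31 without the length trend. It was -0.17 with SB-3CT and 0.10 with IFNγ against control after quantile normalization, and 0.03, 0.09 and 0.06 in SB-3CT with IFNγ against SB-3CT in those 3 settings.

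Signs changed for CTNNBIP1 in SB-3CT with IFNγ against IFNγ (0.08 with median ratio scaling, 0.05 with quantile normalization, 0.06 without the length trend), in SB-3CT against control (0.02 with median ratio scaling, 0.01 without the length trend and -0.04 to 0.02 with samples left out) and in the interaction (0.05, 0.06 and 0.05 under the scalings). CDH13 became 0.16 in SB-3CT with IFNγ against IFNγ without the length trend, and in the interaction 0.07, 0.07 and 0.17 under the scalings. In IFNγ against control CTNNA1 became 0.05 after quantile normalization and ran from -0.11 to 0.03 when samples were left out in turn, and CTNNB1 ran from -0.02 to 0.15. CDH3 ran from -0.02 to 0.04 against IFNγ and was at -0.01 against SB-3CT without SB-3CT+IFNγ replicate 2. In the interaction CDH2 lost its call without control replicate 1 or 2, SB-3CT replicate 1 or 3, IFNγ replicate 1 or 3, or SB-3CT+IFNγ replicate 1 or 3 (adjusted p from 0.0512 to 0.0747). Depth is unknown, so no counting error can be given for the low genes CDH3 and CDH11.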
